A study of Mus musculus with 24 samples.

Results

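The sites bound by CTCF and by cohesin were compared in parental v-Abl transformed pro-B cells, a mouse line arrested at an early stage of B-cell development. All 6 libraries came from cells that lack RAG2 and carry the Emu-Bcl2 transgene, without a degron and without IAA, after 4 days in 3 µM STI-571, which inhibits the Abl kinase. Of these chromatin immunoprecipitation libraries, 3 used an antibody against CTCF and 3 an antibody against Rad21, a cohesin subunit, and the titles of Rad21 replicates 2 and 3 name a spike-in of human HCT116 cells. A site was a union of overlapping mouse peaks that all 3 lists of an antibody touched. This gave 33715 CTCF sites and 25027 Rad21 sites, together 37851 regions of the 84162 merged from the 6 lists and of the 90338 merged from the 16 lists of the whole series. The labels do not say whether replicates were separate cultures, so p-values measure the spread between these libraries, which may be technical.

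CTCF is a zinc-finger protein that binds a long DNA motif with a direction. Cohesin is a ring-shaped complex that moves along chromatin and extrudes loops, and it accumulates where CTCF is bound, with a preference set by the direction of the motif. Cohesin is also loaded and found at active promoters and enhancers. In pro-B cells both proteins shape the loops that bring distant V gene segments to the recombination centre of the immunoglobulin heavy-chain locus.

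The sequences below are strong examples of each class, given before the counts, and do not stand for its typical site. They were read from the reference NCBIM37 (mm9) at sites chosen by rank of fold enrichment, the authors' ratio in column 7 of each list. Capitals mark the core CTCF motif, a 20-base weight matrix learned from CTCF sites and referred to by name. The shared and CTCF-only examples all hold it, while only 50.4% of shared CTCF sites and 47.8% of CTCF-only sites do. Only 2.25% of shared CTCF sites hold 2 or more motifs. The first shared site, near 4930467E23Rik, is on the plus strand of chr8:19784518-19784617, between genes and 54914 bp from the nearest transcript start. The second is printed from the minus strand of chr7:106299897-106300160, between genes and 10381 bp from a start of Uvrag, and holds 4 motifs in the same direction. The third, on the plus strand of chr11:102964085-102964184, is at the promoter of Acbd4, 191 bp from its start, and was chosen after its values were seen, to show a shared promoter site.
4930467E23Rik: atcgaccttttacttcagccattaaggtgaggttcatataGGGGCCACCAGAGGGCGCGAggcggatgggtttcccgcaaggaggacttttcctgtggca
Uvrag: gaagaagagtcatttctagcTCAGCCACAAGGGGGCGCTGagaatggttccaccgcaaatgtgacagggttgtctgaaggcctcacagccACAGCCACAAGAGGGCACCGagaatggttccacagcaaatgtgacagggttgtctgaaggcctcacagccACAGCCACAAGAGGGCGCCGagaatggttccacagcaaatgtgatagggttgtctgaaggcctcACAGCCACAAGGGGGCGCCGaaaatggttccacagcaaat
Acbd4: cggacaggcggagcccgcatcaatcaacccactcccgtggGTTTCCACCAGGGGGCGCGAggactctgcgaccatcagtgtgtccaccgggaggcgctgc

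At the site near 4930467E23Rik the fold enrichment was 44.7, 48.9 and 55.6 in CTCF replicates 1 to 3 and 51.7, 34.9 and 21.9 in Rad21 replicates 1 to 3. At the Uvrag site it was 24.5, 24.6 and 41.8 with CTCF and 38.4, 35.2 and 18.4 with Rad21. These sites were picked by mean rank over the lists of both antibodies, so high values with both follow from the choice.

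CTCF-only sites have a peak in all 3 CTCF lists and none in any Rad21 list. The best 2 by rank that hold the motif are printed. Picked for it, they show only that such a site can carry a match to the weight matrix. The Nts site is on the plus strand of chr10:101914542-101914641, between genes and 38422 bp from a start of Nts, which encodes the peptide neurotensin. The Fcna site is on the plus strand of chr2:25495565-25495664, between genes and 12029 bp from a start of Fcna, which encodes ficolin A.
Nts: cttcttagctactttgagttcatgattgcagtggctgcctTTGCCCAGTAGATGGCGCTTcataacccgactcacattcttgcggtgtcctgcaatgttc
Fcna: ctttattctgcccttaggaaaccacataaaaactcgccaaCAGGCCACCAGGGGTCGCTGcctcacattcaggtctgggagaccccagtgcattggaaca

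The CTCF fold enrichment was 8.72, 7.98 and 8.85 at the Nts site and 6.01, 8.93 and 10.0 at the Fcna site in replicates 1 to 3. These are the strong end of the CTCF-only class and lie far below the strongest shared sites.

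Rad21-only sites are the mirror class, with a peak in all 3 Rad21 lists and none in a CTCF list. Here the central 200 bp are printed, with capitals for matches to short motifs of other factors. The Cxcr4 site, chr1:130499712-130499911, lies between genes, 10942 bp from a start of the chemokine receptor gene Cxcr4. It was added after values were seen, to show a site away from promoters, and its capitals are 2 copies of the palindromic E-box CAGCTG. The Rnaset2a site, chr17:8340346-8340545, lies 251 bp from a start of Rnaset2a, an RNase T2 gene, and its capitals are an SP/KLF motif (GGGCGGG, here on the other strand). Both are printed from the plus strand.
Cxcr4: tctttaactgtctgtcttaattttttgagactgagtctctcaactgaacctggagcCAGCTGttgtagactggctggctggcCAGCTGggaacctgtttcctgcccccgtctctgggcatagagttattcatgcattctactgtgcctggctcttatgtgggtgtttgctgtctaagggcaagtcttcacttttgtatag
Rnaset2a: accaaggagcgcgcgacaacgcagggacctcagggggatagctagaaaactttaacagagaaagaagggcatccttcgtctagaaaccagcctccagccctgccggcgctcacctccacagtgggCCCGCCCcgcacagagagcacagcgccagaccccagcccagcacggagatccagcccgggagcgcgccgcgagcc

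The Rad21 fold enrichment was 5.95, 6.18 and 5.77 at the Cxcr4 site and 6.49, 6.17 and 5.27 at the Rnaset2a site in replicates 1 to 3. The promoter sequence holds 16 CpG dinucleotides and the Cxcr4 sequence 1. Of the 2 best Rad21-only promoter sites, the other is that of Jak1, a cytokine receptor kinase, with folds of 7.89, 6.32 and 4.88 and 18 CpG dinucleotides in its central 200 bp.

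Lists differed in length and width more within the Rad21 group than within the CTCF group. The CTCF lists held 52357, 47558 and 46657 mouse peaks and the Rad21 lists 67810, 43925 and 29724. Median peak width was 286, 312 and 303 bp with CTCF and 440, 320 and 303 bp with Rad21. Rad21 replicate 1 therefore stood apart from its 2 spike-in replicates in width, while in peak number all 3 Rad21 lists differed from each other. The log2 difference between Rad21 and CTCF was -0.13 in peak number (exact two-sided permutation test over 3 against 3 libraries, p = 0.7) and 0.22 in median width (exact p = 0.3), where the smallest p the design allows is 0.1. Peak lists hold no read counts, so the depth of each library is unknown.

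Most sites of either protein were sites of the other. Of the 33715 CTCF sites, 20822 overlapped a Rad21 site by at least 1 bp, an observed share of 61.8%. Of the 25027 Rad21 sites, 20196 overlapped a CTCF site, an observed share of 80.7%. A peak of a single Rad21 list lay at 94.3%, 80.8% and 61.1% of CTCF sites for Rad21 replicates 1 to 3, and a peak of a single CTCF list at 92.6%, 86.5% and 86.9% of Rad21 sites for CTCF replicates 1 to 3. The order for CTCF sites follows the length of the Rad21 lists, from the longest to the shortest.

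Counted by peak, 51.3%, 50.0% and 51.3% of CTCF peaks lay at Rad21 sites in replicates 1 to 3, and 46.9%, 63.8% and 72.4% of Rad21 peaks lay at CTCF sites. The difference, CTCF minus Rad21, was -10.2 percentage points (exact two-sided permutation p = 0.4). It turned to 13.4 without Rad21 replicate 3 and to 1.27 with sites of at least 2 lists. The core CTCF motif was in 32.6%, 36.6% and 38.3% of CTCF peaks and 25.7%, 31.5% and 32.6% of Rad21 peaks, a difference of 5.90 percentage points (exact p = 0.2). It was 10.3 with peaks of a -log10 q-value of 3 or more and 10.7 with all lists shortened to the shortest (exact p = 0.1 each), 3.79 without Rad21 replicate 1 (exact p = 0.3) and 1.89 with the degenerate core motif alone (exact p = 0.2).

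Few sites were free of the other antibody in every list. CTCF-only sites numbered 1891, or 5.61% of CTCF sites, and Rad21-only sites 1146, or 4.58% of Rad21 sites. Between these and the shared sites lay 11002 CTCF sites (32.6%) and 3685 Rad21 sites (14.7%), most of which had a peak of the other antibody in 1 or 2 of its lists. Single libraries set the size of these classes. CTCF-only sites numbered 6272 without Rad21 replicate 1, 2882 without CTCF replicate 1 and 1895 without Rad21 replicate 3. Rad21-only sites numbered 4245 without Rad21 replicate 3 and 2370 without CTCF replicate 1.

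Counted over all merged regions rather than sites, regions with peaks of 1 antibody alone were common. Of the 84162 merged regions, 20453 (24.3%) had a peak in all 6 lists. The next largest groups were regions with a peak in 1 Rad21 list and no CTCF list (18636) and in 1 CTCF list and no Rad21 list (12301). With the lists of each antibody merged on their own, regions that only 2 CTCF lists touched (8204) had a median fold enrichment of 3.84, and 26.9% of them lay at Rad21 sites. Regions in 2 Rad21 lists only (14286) had a median fold enrichment of 4.52, and 47.6% lay at CTCF sites. Both are below the values for regions in all 3 lists, which had medians of 6.34 with CTCF and 6.85 with Rad21.

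Sharing followed rank. In the weakest 25% of a CTCF list, 30.3%, 25.7% and 27.2% of peaks in replicates 1 to 3 lay at Rad21 sites. In the strongest 25% the shares were 91.3%, 92.1% and 92.6%. The difference was 64.3 percentage points ± 2.86 (SD, n = 3), positive in 3 of 3 libraries (exact two-sided sign-flip permutation test, p = 0.25, the smallest that 3 libraries allow). In Rad21 lists the shares at CTCF sites went from 10.8%, 27.2% and 46.1% in the weakest 25% to 98.1%, 99.9% and 99.4% in the strongest 25%. In the strongest 10%, 96.3% ± 0.243 of CTCF peaks and 99.98% ± 0.0183 of Rad21 peaks (SD, n = 3 each) lay at a site of the other antibody.

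**Figure D1:**
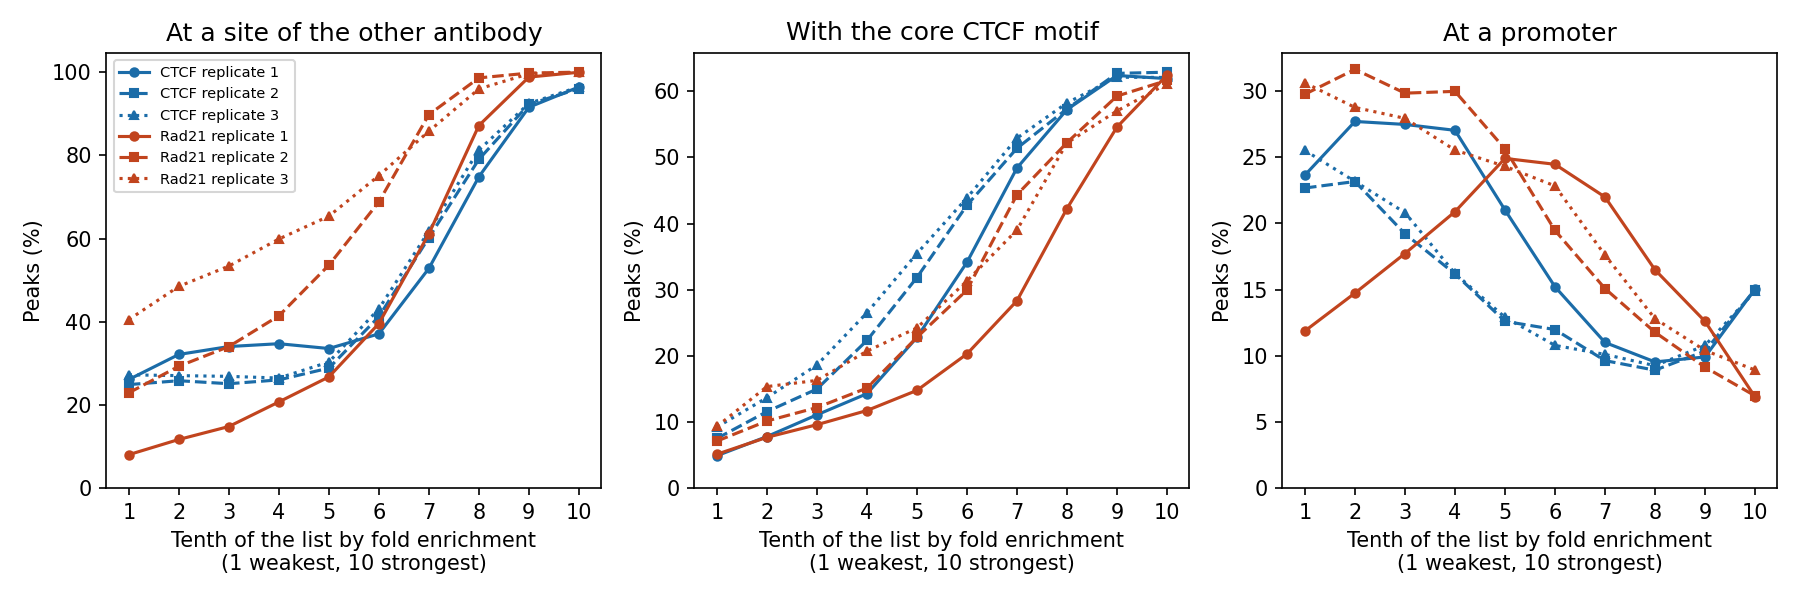
Share of peaks (%) at a site of the other antibody, with the core CTCF motif and at a promoter, in steps of 10% of each list from weakest to strongest fold enrichment, 1 line per library. The share at sites of the other antibody reaches 96.3% with CTCF and 99.98% with Rad21 in the strongest 10% (means of 3 libraries), while the promoter share of CTCF peaks is 23.9% in the weakest 10% and 9.24% in the eighth of the 10 steps.

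The same lists changed in character along the rank. In the weakest 10% of the CTCF lists 7.23% ± 2.18 of peaks held the core motif and 23.9% ± 1.44 lay at promoters. In the strongest 10% 62.3% ± 0.517 held the motif and 15.0% ± 0.0889 lay at promoters (SD, n = 3). In Rad21 lists the motif share went from 7.21% ± 2.10 to 61.7% ± 0.663 and the promoter share from 24.1% ± 10.6 to 7.60% ± 1.15 (SD, n = 3). The strongest peaks of both antibodies thus held the motif at a like share, with a lower mean share at promoters for Rad21; that difference was not tested. Across list pairs, Spearman's rho of fold enrichment over the 20382 shared sites compared was 0.87 to 0.90 between CTCF libraries, 0.81 to 0.92 between Rad21 libraries and 0.60 to 0.71 between a CTCF and a Rad21 library. These are correlations across sites, which are not independent replicates.

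Shared sites ranked higher than single-antibody sites in every library. The median percentile rank of CTCF peaks was 78.6, 76.3 and 75.9 at shared sites and 42.7, 39.4 and 37.2 at CTCF-only sites in replicates 1 to 3, a difference of 37.2 ± 1.43 (SD, n = 3; exact sign-flip permutation p = 0.25). For Rad21 the ranks were 85.0, 76.7 and 64.5 at shared sites and 53.2, 30.6 and 22.8 at Rad21-only sites, a difference of 39.8 ± 7.34 (SD, n = 3; exact p = 0.25). The library medians of the classes did not overlap within either antibody, though the ranks of individual sites did. The highest mean rank was 82.8 among the CTCF-only sites that the naming rule allowed and 71.2 among the Rad21-only ones, while the 8 named shared sites all had a mean rank of 99.9 or more.

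Widths separated the CTCF classes but not the Rad21 classes. CTCF peaks were 508, 540 and 503 bp wide (median) at shared sites and 157, 195 and 184 bp at CTCF-only sites, a mean log2 difference of 1.54 ± 0.14 (SD, n = 3; exact sign-flip permutation p = 0.25), or 2.90-fold. It was 0.80 with all lists shortened to the shortest and 0.87 with peaks of a -log10 q-value of 3 or more. Rad21 peaks were 793, 463 and 353 bp at shared sites and 823, 314 and 177 bp at Rad21-only sites. The log2 differences were -0.05 in replicate 1, 0.56 in replicate 2 and 1.00 in replicate 3, with a mean of 0.50 ± 0.53 (SD, n = 3; exact p = 0.5). Under the same alternatives the Rad21 difference turned to -0.32 and -0.48. Within the third 25% by rank, CTCF peaks were 438 bp ± 23.5 at shared and 237 bp ± 42.3 at CTCF-only sites (SD, n = 3). The CTCF width difference was thus also present within this step of rank, though ranks inside it were not matched. Classes were set by an overlap of at least 1 bp, which a wider peak meets more easily, and the part of this was not tested.

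**Figure D2:**
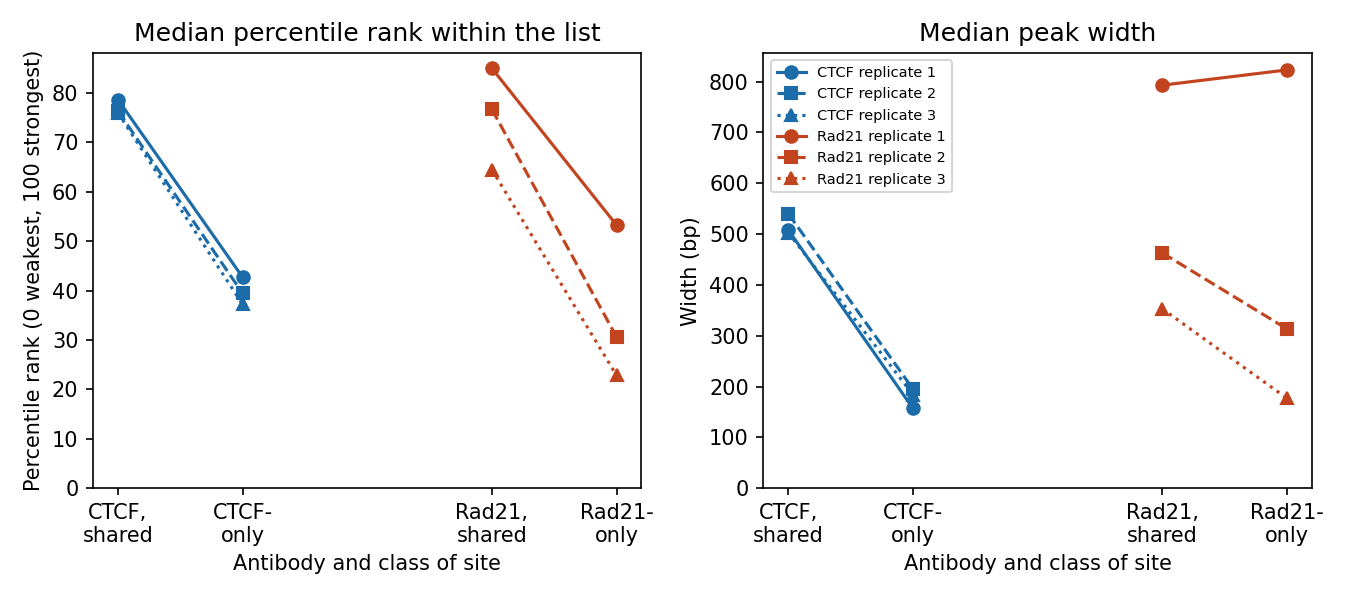
Median percentile rank of fold enrichment (left) and median peak width in bp (right) at shared and single-antibody sites, 1 line per library. All 6 lines fall in rank, and the 3 CTCF lines fall in width to 157, 195 and 184 bp, while the line of Rad21 replicate 1 goes from 793 to 823 bp.

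The core CTCF motif was found in many shared and CTCF-only sites and near background at Rad21-only sites. It was found in 50.4% of shared CTCF sites (95% Wilson interval 49.7% to 51.1%), 47.8% of CTCF-only sites (45.6% to 50.1%) and 1.14% of Rad21-only sites (0.668% to 1.94%). In windows of the same length 5 kb away the shares were 1.13%, 0.658% and 1.11%. These intervals cover counting error over sites only. Shared sites are wider, and in the central 200 bp alone the order of the first 2 classes turned, with 38.2% of shared and 43.6% of CTCF-only sites. The difference over whole sites was 2.57 percentage points, and -0.53 among peaks whose central 31 bp occurs once in the reference. It was 8.37 without Rad21 replicate 1, 7.66 without CTCF replicate 1 and 7.15 without CTCF replicate 3.

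Within the lower 3 steps of 25% by CTCF rank, CTCF-only sites held the motif in their central 200 bp more often than shared sites. Ranks inside a step were not matched. Shared peaks are wider, and counting only the central 200 bp lowered their motif share from 50.4% to 38.2%. For CTCF-only sites it went from 47.8% to 43.6%, and the part of this window in the difference was not tested. In the weakest 25% of the CTCF lists the shares were 35.1% ± 1.06 at CTCF-only and 6.32% ± 1.54 at shared sites (SD, n = 3). They were 45.2% ± 1.06 and 16.9% ± 2.06 in the second 25% and 48.4% ± 0.914 and 36.4% ± 2.13 in the third. The classes did not overlap over the 3 libraries in any of these steps. In the strongest 25% shared sites reached 46.2% ± 0.139, and only 12 to 26 CTCF-only sites per library were left.

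CTCF-only sites also differed in their repeat content. A central 31 bp with further copies in the reference was found at 21.3% of CTCF-only sites, 6.25% of shared CTCF sites and 2.90% of Rad21-only sites. The letters AGAAGAGGG, a form of the CTCF core known from copies of the B2 family of short interspersed repeats, were in the central 200 bp of 20.1% of CTCF-only sites, 9.53% of shared CTCF sites and 1.40% of Rad21-only sites, on either strand. In windows 5 kb away the shares were 1.70%, 1.71% and 1.62%. The letters ATGTGGTTG, which contain the RUNX motif TGTGGTT, were in 8.94% of CTCF-only, 2.40% of shared and 0.702% of Rad21-only sites. TGTGGTT itself was in 13.7% of CTCF-only sites against 5.41% of windows 5 kb away. Both strings were chosen after the data were seen. Reads from repeats can align to more than 1 copy, and the part of this in the CTCF-only class was not tested.

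Several short motifs were more frequent at Rad21-only sites than 5 kb away, described here with no test. In their central 200 bp the palindromic E-box CAGCTG was in 20.4% of sites against 10.2% of windows 5 kb away. EBF half-sites (CCCNNGGG) were in 12.7% against 3.85%, the RUNX motif TGTGGTT in 10.4% against 3.95% and the PU.1 motif GAGGAAGT in 3.86% against 0.912%. At shared Rad21 sites the first 3 were in 11.2%, 6.99% and 6.49% and the last in 1.47%. ETS (CCGGAAG) and SP/KLF (GGGCGGG) letters were in 3.78% against 1.01% and 7.81% against 1.62%, while the octamer ATGCAAAT was in 1.58% against 1.52%. The other E-box searched, CAGGTG, which E2A proteins bind, was in 14.5% against 14.2%, and in 18.5% of shared Rad21 sites, so the E-box forms did not move together. Both strands were searched, and a match is a description of the letters, not a bound site.

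The 878 Rad21-only sites away from promoters and the 261 at promoters differed in several of these letters. CAGCTG was in 22.3% of the former and 13.8% of the latter, TGTGGTT in 12.5% and 3.07%, and GAGGAAGT in 4.78% and 0.766%. EBF half-sites did not follow this, with 12.4% and 13.8%. CpG-rich sequence (over 50% G and C, with CpG observed over expected above 0.6) made up 2.96% of the distal and 67.4% of the promoter sites. Over all 45770 protein-coding transcript starts examined, 48.2% were CpG-rich and 12.6% held CAGCTG.

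Peaks of the 2 antibodies were displaced from each other along the motif. The centres were measured at the 9902 shared sites with exactly 1 motif, with the motif read as printed above and downstream meaning towards its 3′ end. The median centre lay at -7.0, -14.5 and -13.5 bp in CTCF replicates 1 to 3, upstream of the motif centre, and at 23.3, 19.5 and 19 bp downstream in Rad21 replicates 1 to 3. The groups did not overlap. They differed by 32.3 bp (exact two-sided permutation p = 0.1, as small as 3 against 3 libraries can give). The Rad21 centre was downstream of the motif at 64.1%, 67.4% and 64.3% of sites in its 3 libraries, the CTCF centre at 44.8%, 40.7% and 40.5%.

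Site by site, the Rad21 centre lay a median of 28.5 to 41.0 bp downstream of the CTCF centre over the 9 pairs of a Rad21 and a CTCF library. It was downstream at 64.5% to 69.1% of sites. The range was the same, 28.5 to 41.0 bp, for motifs on the plus and on the minus strand. The outer edges of the peaks overlapped between the antibodies. The median downstream edge lay at 242, 256 and 240 bp in CTCF replicates 1 to 3 and at 397, 240 and 211 bp in Rad21 replicates 1 to 3 (exact permutation p = 1.0).

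**Figure D3:**
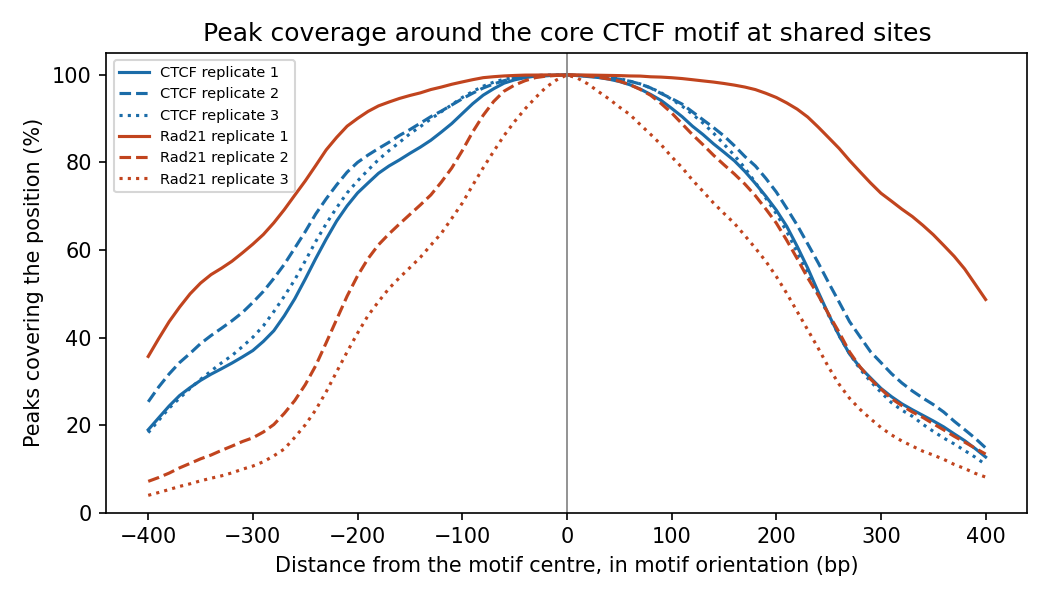
Share of peaks over a motif (%) that cover each position around the motif centre (bp, in motif orientation) at the 9902 shared sites with 1 motif, 1 line per library. The Rad21 lines extend further to the right than to the left and the CTCF lines the reverse, with median centres of 19 to 23.3 bp and -14.5 to -7.0 bp.

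Promoters, here within 1000 bp of a transcript start, were more frequent among Rad21-only than among CTCF-only sites. Promoters made up 22.9% of Rad21-only sites (95% Wilson interval 20.6% to 25.4%), 15.6% of shared CTCF sites (15.1% to 16.1%) and 5.25% of CTCF-only sites (4.33% to 6.36%). Intergenic sites made up 40.2%, 45.5% and 51.9% of the 3 classes, and introns 34.5%, 35.4% and 39.7%. The shares for the wider classes were 13.7% of all CTCF sites and 19.3% of all Rad21 sites at promoters. Over libraries, promoter peaks made up 18.7%, 15.0% and 15.4% of CTCF lists and 17.3%, 20.9% and 21.0% of Rad21 lists, a difference of 3.36 percentage points (exact two-sided permutation p = 0.2), or 5.54 with all lists shortened to the shortest (exact p = 0.1).

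The size of the promoter differences depended on how single-antibody sites were defined. Rad21-only minus shared sites was 7.27 percentage points, and between 2.82 and 21.9 over the alternatives. It was 18.7 with all Rad21 sites that were not shared counted. Those with a CTCF peak in some lists thus lay at promoters more often than Rad21-only sites, so a high promoter share was not particular to Rad21-only sites. CTCF-only minus shared sites was -10.3 percentage points, and between -12.1 and -1.17. Neither changed sign. Both single-antibody classes also reached far from genes: 26.6% of Rad21-only, 24.2% of CTCF-only and 17.8% of shared CTCF sites lay over 50000 bp from a transcript start.

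**Figure D4:**
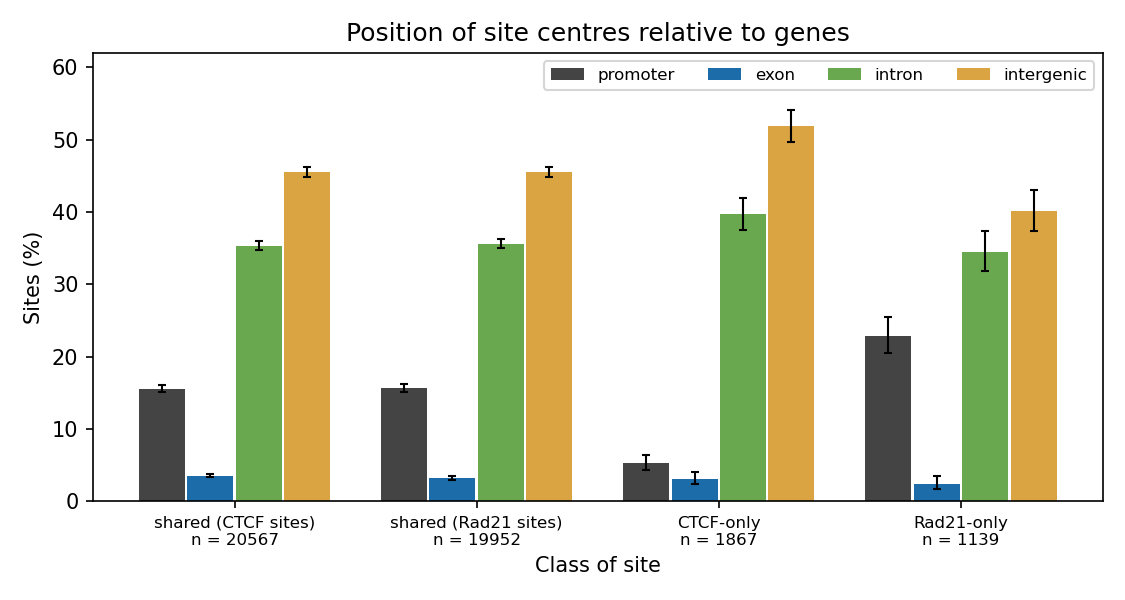
Share of sites (%) whose centre lies at a promoter, in an exon, in an intron or between genes, for 4 classes of site, with 95% Wilson intervals. The promoter bar is 22.9% for Rad21-only and 5.25% for CTCF-only sites, against 15.6% for both kinds of shared site.

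By gene, promoter sites of the 2 proteins were similarly common. Of 22107 protein-coding genes, 22.7% had a CTCF site and 24.6% a Rad21 site within 1000 bp of a transcript start, and 16.3% had both. Against this background, 20 of 20 B-lineage transcription factor genes had a Rad21 site and 15 a CTCF site. Of 19 genes of the pre-B receptor and B-cell surface, 16 had a Rad21 site and 7 a CTCF site, and the 3 with neither were Btk, Cd22 and Kit. Of the 30 cytosolic ribosomal protein genes listed, 16 had a Rad21 site and 19 a CTCF site. A CTCF site without a Rad21 site was at 0 of the 20, 0 of the 19 and 6 of the 30 genes of these lists, against 6.37% of all protein-coding genes, a share too low for a count of 0 in lists of this size to be read as a difference.

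Erg, Id3, Irf4, Lef1 and Myb were the transcription factor genes with a Rad21 site but no CTCF site. At Erg, an ETS factor gene, the Rad21 folds were 4.80, 5.20 and 4.67 in replicates 1 to 3 and no CTCF list had a peak. At Myb, needed for early B-cell development, Rad21 gave 9.57, 5.59 and 4.62 and CTCF a peak in replicate 2 only, of 3.78. At Irf4, a regulator of pre-B differentiation, Rad21 gave 7.33, 6.50 and 4.73 and CTCF 3.69 and 3.90 in replicates 1 and 3. CTCF peaks were thus absent from all lists at Erg alone of these 5 genes.

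Further promoters of the pre-B program are given with both antibodies' folds. At Pax5, which commits cells to the B lineage, the folds were 3.71, 4.74 and 4.51 with CTCF and 7.98, 5.12 and 4.45 with Rad21. At Vpreb1, a surrogate light chain gene of the pre-B receptor, they were 3.99, 4.45 and 4.06 with CTCF and 8.18, 5.41 and 4.64 with Rad21. At Vpreb3 the Rad21 folds were 13.3, 13.6 and 5.33, and CTCF had 3.51 and 4.19 in replicates 1 and 3 and no peak in replicate 2. Rag1 and Rag2, the recombinase genes, of which Rag2 is inactive in these cells, had Rad21 folds of 4.27 to 4.49 in all 3 replicates and no CTCF site, with CTCF peaks in 1 list at Rag1 and 2 lists at Rag2. Folds of the 2 antibodies come from separate lists and were not tested against each other.

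Some genes of the cohesin system had a CTCF site and no Rad21 site at the promoter. Of 16 such genes, 10 had a CTCF site and 9 a Rad21 site, against 22.7% and 24.6% of all protein-coding genes. Both sites were at 7 of them, a CTCF site alone at 3 and a Rad21 site alone at 2. At Esco1, a cohesin acetyltransferase gene, the CTCF folds were 10.1, 10.99 and 11.9, and Rad21 had peaks of 4.86 and 4.67 in replicates 1 and 2 and none in replicate 3. At Nipbl, the cohesin loader gene, they were 6.41, 9.25 and 8.38 with CTCF and 4.71 and 5.01 with Rad21 in replicates 1 and 2. At Mau2, the loader's partner gene, only Rad21 had peaks, of 4.71, 4.52 and 3.96.

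Marker promoters of several lineages were counted to check the labelled cell type. A Rad21 site was at 7 of 7 B-lineage marker promoters and at 0 of 5 T-lineage, 0 of 4 myeloid, 0 of 3 liver and 0 of 3 neuron marker promoters. Among 3 erythroid markers, Klf1 had a site of both proteins. Over all protein-coding genes 24.6% had a Rad21 site, so a count of 0 in lists of 3 to 5 genes cannot be read as a difference. All 7 B-lineage markers also belong to the B-cell gene lists above, so they are not a separate check. A peak at a promoter is occupancy, not expression.

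The strongest single-antibody sites lay near named genes by nearest transcript start. For CTCF-only these were Cdsn, Nts, Ghitm, Fcna, Bpifa2e, Ephb2, Specc1 and Mettl22, with mean folds of 7.79 to 9.37. Of these the Specc1 site, chr11:61770001-61770518, was at a promoter, 21 bp from a start, with folds of 7.55, 7.69 and 8.49. For Rad21-only they were Map3k1 (2 sites), Cxcr4, Spin1, Dusp22, Prdm1, Ralgps2 and Rnaset2a, with mean folds of 5.84 to 6.58. The first Map3k1 site, chr13:112793825-112795119, was 195271 bp from a start of this kinase gene, with folds of 7.43, 6.22 and 5.85. The Prdm1 site, chr10:44357738-44359234, was 179932 bp from a start of the gene of Blimp-1, a repressor in plasma cell differentiation, with folds of 5.80, 7.03 and 5.28. Of these 8 Rad21-only sites, the 7 other than Rnaset2a lay between genes.

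The top of the shared class held places with extreme values in both antibodies. At the site in the Gm10800 promoter, chr2:98506388-98507502, the fold was 35741, 34794 and 27825 with CTCF and 34350, 12894 and 11063 with Rad21. The next 3 were in Chl1, near Gm5614 and near Gm10800, with mean CTCF folds of 4960, 3233 and 2351. None of these 4 held the motif. The fifth, near 4930467E23Rik, had a mean CTCF fold of 49.7. Values of that size in both antibodies, without a motif, stand apart from the rest of the lists, and whether the sequence of these places plays a part was not tested.

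Site density followed the gene content of the chromosomes. Over 19 autosomes and X, Pearson's r between genes per Mb and sites per Mb was 0.838 for CTCF and 0.794 for Rad21, given as a description, since chromosomes share the same libraries. Chromosome 11 had the most sites per Mb (20.8 CTCF, 16.2 Rad21). X had the fewest of the 20, with 7.39 CTCF and 3.38 Rad21 sites per Mb, against medians of 12.7 and 9.59.

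Among the autosomes and X, the shares of sites shared were farthest apart on X. Of its 1232 CTCF sites, 41.2% were shared, against a median of 62.1% and a highest value of 69.1% on chromosome 17. Of its 564 Rad21 sites, 89.7% were shared, the highest of the 20. Y, with 35 CTCF and 6 Rad21 sites, had 11.4% and 83.3%. X held 3.28%, 3.72% and 3.56% of peaks in CTCF lists and 2.98%, 2.49% and 2.30% in Rad21 lists. The groups did not overlap, and the difference was -0.93 percentage points (exact two-sided permutation p = 0.1, the smallest possible; adjusted over 21 chromosomes, Benjamini-Hochberg p = 0.175). The share of peaks did not overlap between antibodies on 12 of the 21 chromosomes tested, Y included, a background of 57.1%, so that lack of overlap alone does not single out X. Repeats moved with this difference: a central 31 bp with further copies in the reference was found in 42.9% ± 1.959 of CTCF peaks on X and 11.996% ± 0.939 on autosomes, and in 24.7% ± 6.32 and 6.93% ± 2.16 of Rad21 peaks (SD, n = 3). Among peaks with a single-copy centre, an alternative added after seeing the data, the difference in the share of peaks on X was -0.21 percentage points (exact p = 0.3).

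The share of CTCF peaks at Rad21 sites was lower on X than on autosomes in each of the 3 libraries, 31.2% ± 1.29 against 51.6% ± 0.730 (SD, n = 3; the difference was not tested). Among peaks with a single-copy centre the shares were 44.2% ± 0.673 and 55.3% ± 0.412. From the weakest to the strongest 25% by rank, all peaks counted, the shares were 4.45% ± 1.79, 11.7% ± 2.02, 45.8% ± 7.78 and 84.02% ± 2.99 on X and 28.4% ± 2.27, 30.4% ± 4.00, 54.8% ± 3.78 and 92.1% ± 0.660 on autosomes. The libraries overlapped in the third of these steps. In the strongest the median rank was also lower on X, 82.1 ± 0.273 against 87.6 ± 0.0135, so that step does not compare peaks of equal rank. The X-linked cohesin genes showed both kinds of promoter: Stag2 had both proteins, with CTCF folds of 7.52, 9.05 and 10.6 and Rad21 folds of 9.33, 9.22 and 5.53, and Smc1a had CTCF folds of 5.26, 3.84 and 4.29 and a Rad21 peak in replicate 1 only, of 3.33. The number of X chromosomes in the line is not in the labels.

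**Figure D5:**
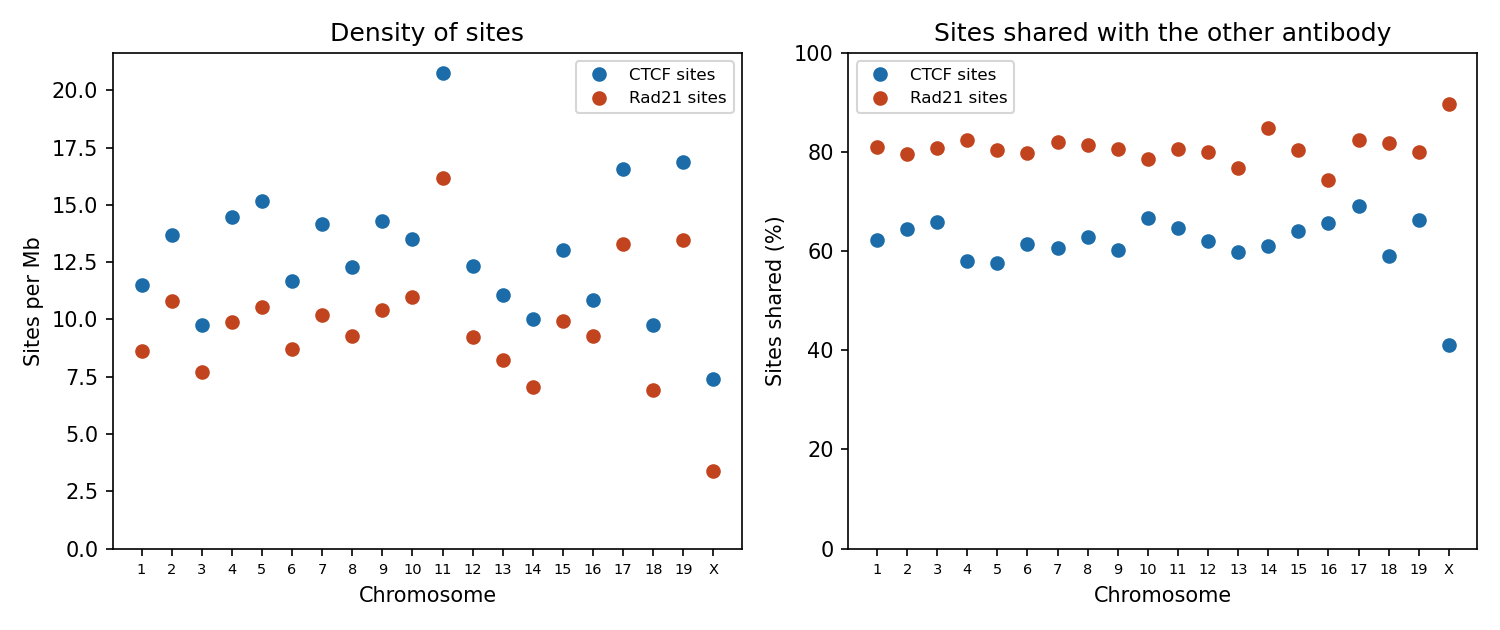
Sites per Mb (left) and share of sites shared with the other antibody in % (right) by chromosome, for CTCF and Rad21 sites. X has 3.38 Rad21 sites per Mb, and its CTCF and Rad21 points for sharing, 41.2% and 89.7%, are the farthest apart of the 20 chromosomes plotted.

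The classes were then examined in libraries that were not used to define them. In the 2 Rad21 libraries of the Rad21-degron line without IAA, a peak lay at 76.2% ± 9.86 of shared CTCF sites, 44.0% ± 19.1 of Rad21-only sites and 0.529% ± 0.299 of CTCF-only sites (SD, n = 2). With IAA, which removes Rad21 in that line, the shares were 3.12% ± 2.03, 2.79% ± 3.21 and 1.11% ± 0.972 (SD, n = 2). The CTCF-only sites thus had almost no Rad21 peaks in another line either, and Rad21-only sites had Rad21 peaks there at a lower share than shared sites in both libraries.

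In the CTCF-degron line after IAA at 500 µM, given from 6 h before STI-571, the order of the classes differed. Rad21 peaks lay at 64.02% ± 24.4 of Rad21-only sites and 42.4% ± 9.36 of shared Rad21 sites (SD, n = 3). The Rad21 sites between these classes had the highest share, 76.7% ± 15.7 (SD, n = 3), and were above Rad21-only sites in each library. CTCF peaks lay at 24.6% ± 7.97 of shared CTCF sites and 8.11% ± 0.390 of CTCF-only sites. CTCF peaks were also found at 16.4% ± 10.9 of Rad21-only sites, which by definition have none in the parental lists. They were found at 36.9% ± 18.7 of the Rad21 sites between the classes (SD, n = 3). Line and IAA change together between these libraries and the parental ones, so their parts cannot be told apart, and the differences between classes were not tested.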

How the data were processed

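Peak lists of 6 libraries were used. Reads were aligned with Bowtie2 2.2.8 and handled with SAMtools 1.8, with builds mm9 and hg19, per the submitters' processing notes; per the labels, mm9 was joined with another entry to a hybrid. The caller of the peaks and its settings are not given in the sources used here. The lists, as deposited, give a fold enrichment (ratio) in column 7, -log10 of p and q in columns 8 and 9 and a whole-number score, not used here, in column 5. Lists were made per library, and their depth is unknown. Percentile ranks of the fold were taken within each list, mouse peaks only.

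Overlapping peaks were merged per antibody, and a site was touched by all 3 lists. Gene positions and sequence came from NCBIM37 and GENCODE, on chromosome 12 only before position 110000000, since the hybrid exceeds the reference there. The motif matrix was learned on odd-numbered chromosomes, with a threshold that 1% of windows 5 kb away pass. Sites were named by the 8 highest mean ranks of each class with a single-copy centre (31 bp), and sequences were read for the 2 best of each class with a motif (Rad21-only: at a promoter). All of these but that of Jak1 were printed, with those of Acbd4 and Cxcr4 added. Groups were compared with exact permutation tests over libraries, and classes within libraries with exact sign-flip tests. Python 3.11.15, numpy 2.4.6, pandas 2.3.3 and scipy 1.17.1 were used, and the functions were tested on simulated data. Members and lists were chosen with earlier results of these data known. Input libraries were not used here.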

Additional observations from a re-analysis of the deposited data

Results flagged for a closer look

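Peaks on contigs of the human build hg19 were present in 2 of the 6 parental lists, Rad21 replicates 2 and 3, whose titles name a spike-in of human HCT116 cells. They numbered 9640 in replicate 2 and 1748 in replicate 3. The other 4 lists held none. These peaks entered no comparison.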

How the results depend on the processing

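In all, 214 recalculations covered 17 results. Of 146 recalculations of tested results, 140 kept the direction. Of 68 recalculations of values without a test, 43 stayed within a spread and 24 moved beyond it. The motif difference turned sign among peaks with a single-copy centre. The spread was an SD over single libraries for the shares of sites shared. For the promoter and motif differences it was the half-width of a 95% interval of counting error over sites, an unlike measure. With a -log10 q-value of 3 or more, the Rad21 width difference was -0.48 (log2), Rad21 sites shared 85.6%, and promoter differences from shared sites -2.34 percentage points (CTCF-only) and 21.9 (Rad21-only). With lists shortened to the shortest, the Rad21 width difference was -0.32, the width difference between antibodies -0.0091, and the promoter differences -1.17 and 21.6. With sites of at least 2 lists, the share at the other antibody's sites differed by 1.27 (CTCF minus Rad21), Rad21 sites shared were 76.8%, the promoter differences -12.1 and 2.82, and the motif difference (shared minus CTCF-only) 5.95. With 50% of a site covered, Rad21 sites shared were 68.8% and the Rad21-only promoter difference 10.9. With all sites not shared counted as single-antibody sites, the promoter differences were -4.97 and 18.7 and the motif difference 5.33. Among peaks with a single-copy centre, chosen after seeing the data, Rad21 sites shared were 77.0%, the motif difference -0.53 and the difference in peaks on X -0.21.

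Leaving out each library in turn gave 58.0% to 81.1% of CTCF sites and 69.4% to 83.6% of Rad21 sites shared, both extremes of 81.1% and 69.4% without Rad21 replicate 3. Ranges were -0.43 to 0.16 for peak number (log2), -20.6 to 13.4 percentage points for the share at the other antibody's sites (CTCF minus Rad21), -11.1 to -6.70 and 4.69 to 13.8 for the promoter differences, and 1.82 to 8.37 for the motif difference. Peak number and the share at the other antibody's sites turned sign without Rad21 replicate 3. Causes were not tested, except that fewer lists per antibody give more sites.

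The replicate block pairs same-numbered libraries, which leaves each mean difference as it was. Its smallest possible p is 0.25, so it cannot decide any of these results. The exact sign-flip p was 0.75 for peak number (-0.13), 0.5 for width (0.22) and 0.5 for the share at the other antibody's sites (-10.2). It was 0.5 for promoters (3.36), and 0.25 each for X (-0.93), the motif (5.90) and the offset (32.3 bp). Correlations of deviations were 0.043, -0.016 and -0.003 for same-numbered libraries and -0.036 to 0.048 for the other pairs. They show no pairing by number but cannot exclude a shared culture or batch. Without read counts, absence of a peak in a list may reflect its depth, which limits the single-antibody classes.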
